A study of Mus musculus with 6 samples.

Results

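The Hox genes are the homeobox transcription factor genes of the Hoxa, Hoxb, Hoxc and Hoxd clusters. They were read here in neurons of the preBötzinger Complex (preBötC), the medullary site that generates inspiratory rhythm. Members were taken by name alone, as Hox followed by a cluster letter and a number, which gave 39 of the 49568 gene names measured. No expression value entered this rule, but the family was chosen with earlier results of these data known. The study compared 3 samples of Dbx1 neurons with 3 samples of non-Dbx1 neurons, each made of 15 neurons drawn into a micropipette from 1 mouse at postnatal day 2, with a different animal for each sample. Every animal was a Dbx1CreERT2; Rosa26tdTomato offspring of dams given tamoxifen, in which Cre made under the control of Dbx1 removes a STOP cassette and leaves descendants of Dbx1-expressing progenitors fluorescent. Dbx1 neurons were picked for tdTomato fluorescence and non-Dbx1 neurons for its absence. A neuron of Dbx1 origin in which the cassette was not removed would therefore have been collected as a non-Dbx1 neuron. The non-Dbx1 samples pool neurons whose own progenitors the labels do not name. In such pools of 15 neurons, fewer neurons with a transcript and less transcript per neuron cannot be told apart.

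Hox proteins specify position along the anterior-posterior axis of the embryo. Within a cluster the genes lie in the order in which they are expressed along that axis, genes of like position in different clusters form a numbered paralogue group, and low-numbered groups are expressed furthest rostrally, in the hindbrain. In the hindbrain their anterior limits follow rhombomere boundaries and are set early by retinoic acid, after which Polycomb and trithorax proteins keep genes off or on, and the Hox proteins bind DNA with Pbx and Meis cofactors.

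Summed over its genes, paralogue group 4 was the highest group in every sample except non-Dbx1 2, where group 5 was. Group 4 has a gene in every cluster and group 2 only in Hoxa and Hoxb, so these sums also depend on the number of genes. Reads all but ended beyond group 5. Of the 39 genes, 26 had reads in at least 1 sample, 9 had reads in all 6 samples and 13 had none. Values are reads on a gene scaled by its exon length in kilobases and by the total reads on genes (RPKM), as the authors deposited them. Between 88.7% and 100% of the summed Hox RPKM of a sample came from the 12 genes of groups 2 to 5, with the lowest share in non-Dbx1 1. Hoxa4 was higher in every Dbx1 sample than in any non-Dbx1 sample, as was Hoxc5 at a lower level, while the other 9 tested genes overlapped between the groups. Groups without overlap were thus found for 2 of 11 tested Hox genes (18.2%), against 10.6% of all genes tested. No Hox gene passed the false discovery rate (FDR) threshold of 0.1.

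The 4 clusters occupy 4 chromosomes of the GRCm38 build (gene models of GENCODE vM21). The Hoxa cluster spans chr6:52155590-52260880 on the minus strand, 105 kb with 11 genes, of which 9 had reads. The Hoxb cluster spans chr11:96194316-96368256 on the plus strand, 174 kb with 10 genes, of which 7 had reads. The Hoxc cluster spans chr15:102921103-103036852 on the plus strand, 116 kb with 9 genes, of which 5 had reads. The Hoxd cluster spans chr2:74668310-74765142 on the plus strand, 96.8 kb with 9 genes, of which 5 had reads. Genes with reads in all 6 samples numbered 3 in Hoxa, 4 in Hoxb, 1 in Hoxc and 1 in Hoxd.

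**Figure D1:**
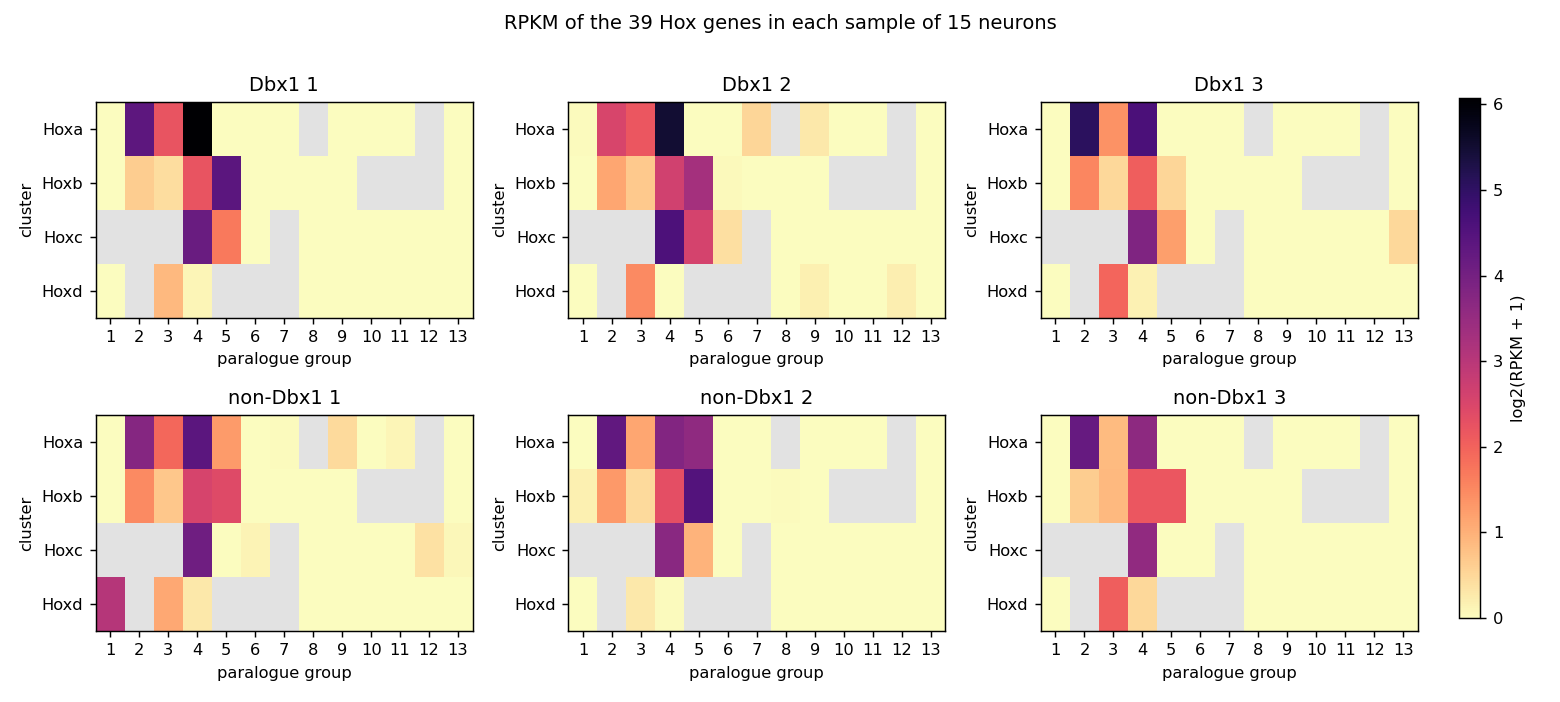
Colour gives log2(RPKM + 1) of each Hox gene in each sample, with the 4 clusters as rows and the 13 paralogue groups as columns, and places without a gene left grey. In all 6 samples the colour lies in groups 2 to 5, apart from Hoxd1 in non-Dbx1 1, and no gene of groups 6 to 13 exceeded an RPKM of 0.414.

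Group 4 led by summed RPKM. Its members ranged from a high level (Hoxc4) through a lower, even level (Hoxb4) to almost no counted reads (Hoxd4), so the start regions of these 3 genes are shown. Hoxa4, the highest of the group, had no RefSeq entry and is left out. Each sequence runs from 250 bases before to 50 bases after a RefSeq transcript start on GRCm38.p6, plus strand. Only for Hoxb4 is this the start of the gene model behind the RPKM. The models of Hoxc4 and Hoxd4 start further upstream, at 103018934 and 74711929, so their windows lie inside the models. The capitals mark TGACCT, the reverse complement of AGGTCA, which is the core half-site that nuclear receptors such as the retinoic acid receptors recognise. The motif was searched on both strands and was chosen after the sequences had been seen.
Hoxb4, chr11:96318017-96318316: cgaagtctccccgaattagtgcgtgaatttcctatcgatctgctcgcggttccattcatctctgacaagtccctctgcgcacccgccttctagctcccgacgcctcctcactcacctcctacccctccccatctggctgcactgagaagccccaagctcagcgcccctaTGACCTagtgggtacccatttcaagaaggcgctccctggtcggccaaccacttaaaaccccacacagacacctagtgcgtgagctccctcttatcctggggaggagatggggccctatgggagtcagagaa
Hoxc4, chr15:103034145-103034444: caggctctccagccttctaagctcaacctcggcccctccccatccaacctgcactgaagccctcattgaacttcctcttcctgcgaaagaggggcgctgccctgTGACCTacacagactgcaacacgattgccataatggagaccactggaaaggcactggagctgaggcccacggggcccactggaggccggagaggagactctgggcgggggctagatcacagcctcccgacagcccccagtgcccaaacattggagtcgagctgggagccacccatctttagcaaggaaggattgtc
Hoxd4, chr2:74721728-74722027: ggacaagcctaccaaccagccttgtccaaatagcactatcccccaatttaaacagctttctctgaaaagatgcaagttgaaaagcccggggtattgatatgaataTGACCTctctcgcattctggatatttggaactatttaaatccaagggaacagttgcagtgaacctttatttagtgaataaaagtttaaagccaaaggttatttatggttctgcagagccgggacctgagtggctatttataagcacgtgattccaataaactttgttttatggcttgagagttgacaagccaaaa
The motif began at position -81 of Hoxb4, -146 of Hoxc4 and -145 of Hoxd4, counted from the start. Of 32851 RefSeq promoters of this length, 5340 (16.3%) held it on either strand, and among 22 Hox genes with an entry it was present in 7 (Hoxa5, Hoxb4, Hoxc4, Hoxd3, Hoxd4, Hoxd8 and Hoxd10). Expressed and silent genes were both among these 7. The windows differed more in base composition, with 58% G and C and 14 CpG dinucleotides in Hoxb4, 60.3% and 9 in Hoxc4, and 39.7% and 4 in Hoxd4, against medians of 52.7% and 7 over all promoters. A match describes letters and not a bound site.

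Paralogue group 1 was almost without reads. Hoxd1 (ENSMUSG00000042448, chr2:74762980-74765142) had an RPKM of 7.31 from 88 reads in non-Dbx1 1 and was listed at 0 in the other 5 samples, where a count of 0 allows up to 0.249. Hoxb1, known for rhombomere 4, had only 3 reads, all in non-Dbx1 2 (RPKM 0.122). Such upper limits stand for 3 reads in the shallowest sample. They hold for counting error alone, as the complementary DNA was amplified and its reads can be copies of 1 molecule. The Hoxd1 sample also held most of the erythroid and myelin transcripts of the series, with a summed RPKM of 14058 for 5 erythroid genes, against 90.3 to 1198 elsewhere. Its summed RPKM for 6 oligodendrocyte genes was 388, against 16.4 to 73.6 elsewhere. The part of those cells in the Hoxd1 reads was not tested.

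Group 2 is the group with the most rostral reach in the hindbrain, and Hoxa2 is its best-known member, a selector of second-arch and rhombomere identity. Hoxa2 (ENSMUSG00000014704, chr6:52162417-52164831) had RPKM values of 19.4, 4.79 and 32.4 in Dbx1 samples 1 to 3 and 12.4, 18.4 and 17.4 in non-Dbx1 samples 1 to 3, from 64 to 400 reads. The Dbx1 samples held both its lowest and its highest value, so the groups overlapped, and the mean was 18.9 ± 13.8 (SD, n = 3) against 16.1 ± 3.23 (n = 3). Hoxb2 had RPKM values of 0.555, 1.17 and 1.90 for the Dbx1 samples, against 1.79, 1.45 and 0.534 for the non-Dbx1 samples. The Hoxb2 ranges were nearly the same. In each sample Hoxa2 thus exceeded Hoxb2 per length, by 4.09 to 35.0 times in the Dbx1 samples and 6.93 to 32.6 times in the non-Dbx1 samples.

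Group 3 genes were present in every sample at a few RPKM or less. Hoxa3 (ENSMUSG00000079560) had RPKM values of 3.63, 3.53 and 1.60 for the Dbx1 samples, against 2.80, 1.17 and 0.819 for the non-Dbx1 samples. Hoxb3 had 0.335, 0.596 and 0.406, against 0.617, 0.369 and 0.846. Hoxd3 had 0.861, 1.78 and 2.85, against 1.13, 0.203 and 3.15. None of the 3 genes separated the groups, and Hoxd3 varied 15.5-fold from its lowest to its highest sample. The sum over the group was 4.83, 5.90 and 4.86 RPKM for the Dbx1 samples, against 4.55, 1.75 and 4.81 for the non-Dbx1 samples. The sums did not overlap, although the gap between the lowest Dbx1 and the highest non-Dbx1 sum was far smaller than the spread in either group. Levels of Hoxb3 and Hoxd3 are uncertain, because 52.9% and 62.9% of their exon bases are shared with other genes (Hoxb3os for Hoxb3; Hoxd4, Haglr and others for Hoxd3) and reads were counted without strand.

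Group 4 held the largest share of Hox RPKM in 5 of the 6 samples, non-Dbx1 2 being the exception, and between 34.1% and 73.0% over all 6. Its anterior boundary in the embryo lies in the caudal hindbrain. Hoxa4 (ENSMUSG00000000942, chr6:52189671-52191753) had RPKM values of 66.3, 44.2 and 23.5 for the Dbx1 samples from 840, 530 and 261 reads, against 19.6, 12.7 and 11.3 for the non-Dbx1 samples from 202, 173 and 170 reads. The mean was 44.7 ± 21.4 (SD, n = 3) against 14.5 ± 4.45 (n = 3). All Dbx1 samples lay above all non-Dbx1 samples, with Dbx1 3 nearest to the other group. The difference on the log2(RPKM + 1) scale (L2FC, Dbx1 minus non-Dbx1) was 1.47 with a standard error of 0.40 (limma, p = 0.00584, Benjamini-Hochberg FDR = 0.787), and the exact two-sided permutation p was 0.10, the smallest that 3 samples against 3 can give.

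The other members of group 4 included the evenest of the Hox genes and one that was almost without reads. Hoxc4 (ENSMUSG00000075394, chr15:103018934-103036852) had RPKM values of 16.9, 23.2 and 13.1 for the Dbx1 samples, against 15.7, 12 and 10.9 for the non-Dbx1 samples, from 375 to 716 reads. Hoxb4 (ENSMUSG00000038692, chr11:96318267-96321638) had 3.63, 5.23 and 3.14, against 4.88, 3.96 and 3.51. Hoxb4 varied 1.67-fold and Hoxc4 2.12-fold over the 6 samples, less than any other of the 9 genes with reads in all of them, where the range went from 2.53-fold for Hoxb3 to 50.2-fold for Hoxb5. Hoxd4 was at the other end of the group, with RPKM values of 0.0715, 0 and 0.109 for the Dbx1 samples, against 0.205, 0.022 and 0.402 for the non-Dbx1 samples, from at most 20 reads. Of its exon bases 52.3% are shared with Hoxd3 and other genes. How reads on shared bases were counted was not examined, so the level of Hoxd4 is uncertain and its few counted reads do not show that it was silent. The groups overlapped for Hoxc4, Hoxb4 and Hoxd4 alike.

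Ratios within a sample do not depend on its depth, and they are given for Hoxa4 and its paralogues. The RPKM ratio of Hoxa4 to Hoxc4 was 3.91, 1.91 and 1.79 for the Dbx1 samples, against 1.25, 1.06 and 1.03 for the non-Dbx1 samples. The ratio of Hoxa4 to Hoxb4 was 18.3, 8.45 and 7.50, against 4.01, 3.20 and 3.22. Both ratios were higher in every Dbx1 sample, as Hoxa4 itself was, so they are not independent of its own difference. The ratio of Hoxc4 to Hoxb4 also separated the samples, at 4.67, 4.43 and 4.19 against 3.22, 3.02 and 3.11, a mean of 4.43 ± 0.243 (SD, n = 3) against 3.12 ± 0.10 (n = 3), although neither gene did so alone. Against its cluster neighbours the picture was less even. The ratio of Hoxa4 to Hoxa3 was 18.2, 12.5 and 14.7 for the Dbx1 samples, against 7.01, 10.8 and 13.8 for the non-Dbx1 samples, and that of Hoxa4 to Hoxa2 ran from 0.727 to 9.22 and from 0.648 to 1.58, so that both overlapped. The ratios were chosen after the values had been seen and carry no test.

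**Figure D2:**
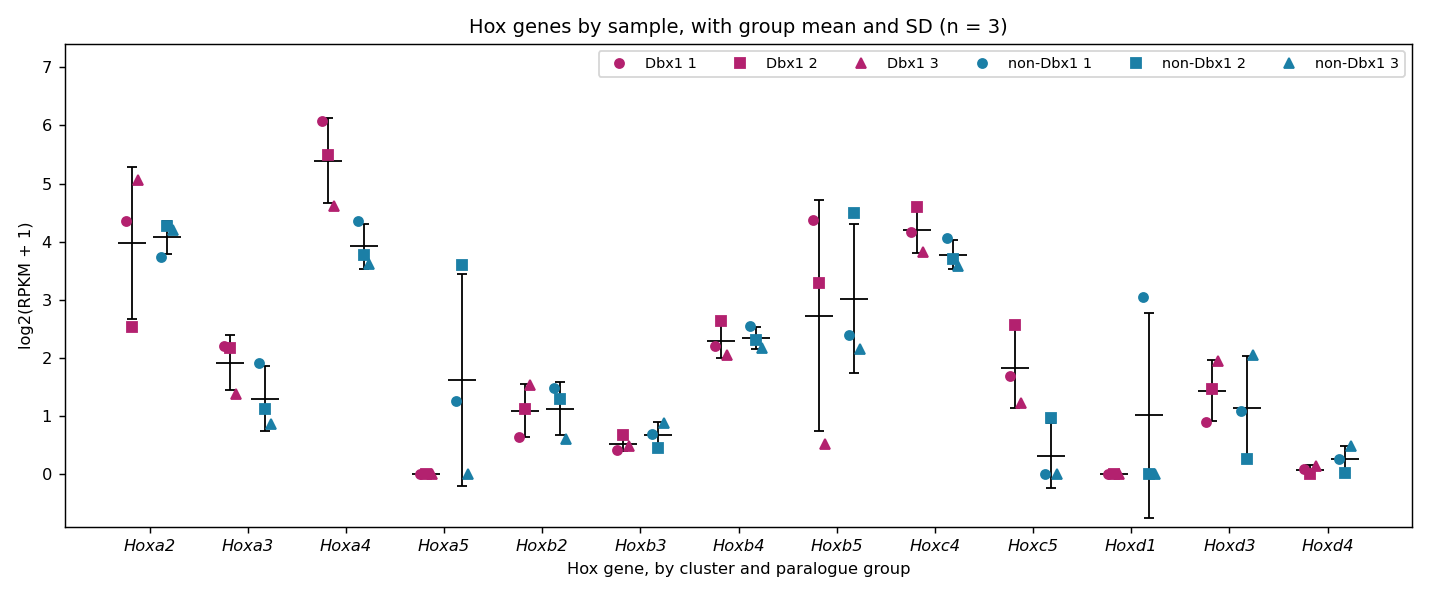
Points give log2(RPKM + 1) of the 13 Hox genes of groups 1 to 5 with the most reads, by cluster and paralogue group, with each sample as a point. The Dbx1 points lie above the non-Dbx1 points for Hoxa4 and Hoxc5, and Hoxb5 has the widest scatter of the genes with reads in all 6 samples.

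Group 5 varied widely from sample to sample. Hoxb5 (ENSMUSG00000038700, chr11:96303336-96306121) had RPKM values of 19.6, 8.82 and 0.430 for the Dbx1 samples from 731, 311 and 14 reads, against 4.30, 21.6 and 3.47 for the non-Dbx1 samples from 130, 864 and 153 reads. It was high in 1 sample of each group and the ranges overlapped fully, with nearly equal means of 9.63 ± 9.63 (SD, n = 3) and 9.78 ± 10.2 (n = 3). Hoxa5 (ENSMUSG00000038253, chr6:52201754-52204587), which is needed for the airway and for neonatal breathing, was listed at 0 in all 3 Dbx1 samples, which allows up to 0.247. It had RPKM values of 1.40 and 11.1 in non-Dbx1 1 and 2 and 0 in non-Dbx1 3, so that non-Dbx1 2 was the highest sample for Hoxb5 and Hoxa5 alike. That sample also had the highest endothelial sum (69.4 RPKM over 6 genes, against 0.0627 to 4.78 elsewhere), of which Cldn5 made up most, and the part of such cells in Hoxa5 was not tested. The group then made up 40.0% of the Hox RPKM of non-Dbx1 2 and 2.18% of that of Dbx1 3.

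Hoxc5 (ENSMUSG00000022485, chr15:102967443-103017429) had most of its reads in the Dbx1 samples. Its RPKM was 2.24, 4.92 and 1.34 for the Dbx1 samples from 63, 131 and 33 reads, against 0, 0.958 and 0 for the non-Dbx1 samples, with 29 reads in non-Dbx1 2. Every Dbx1 sample lay above every non-Dbx1 sample. Its L2FC was 1.51, standard error 0.55 (limma, p = 0.0235, Benjamini-Hochberg FDR = 0.912; exact two-sided permutation p = 0.10). Its limma p exceeded 0.05 without Dbx1 2 (0.0513), non-Dbx1 1 (0.0828) or non-Dbx1 3 (0.0870), whereas for Hoxa4 p stayed at or below 0.0250 with each sample left out. The Hoxc5 model overlaps Hoxc10 in 5.37% of its exon bases, and Hoxc10 had no reads.

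Beyond group 5, reads were scattered. Of the 24 genes of groups 6 to 13, which pattern the spinal cord and trunk, 11 had any read and none exceeded an RPKM of 0.414, the value of Hoxa7 in Dbx1 2, from at least 19 reads. Hoxa7 also had an RPKM of 0.0254 in non-Dbx1 1, and it shares 20.4% of its exon bases with the antisense Hoxaas3. Hoxc13 had an RPKM of 0.409 in Dbx1 3 and of 0.0629 in non-Dbx1 1. Hoxc6 had 0.308 in Dbx1 2 and 0.103 in non-Dbx1 1, and Hoxa9 had 0.215 and 0.376 in the same samples. The others had reads in 1 sample each, namely Hoxb6 (0.0404), Hoxd9 (0.124) and Hoxd12 (0.157) in Dbx1 2, Hoxa11 (0.0706) and Hoxc12 (0.300) in non-Dbx1 1, Hoxb8 (0.0263) in non-Dbx1 2 and Hoxa10 (0.0157) in non-Dbx1 3. Dbx1 2 and non-Dbx1 1 each held 6 of these 11 genes and the other samples 0 or 1, so the traces were uneven within both groups. The 13 genes without a read were Hoxa6, Hoxa13, Hoxb7, Hoxb9, Hoxb13, Hoxc8, Hoxc9, Hoxc10, Hoxc11, Hoxd8, Hoxd10, Hoxd11 and Hoxd13. For them a count of 0 allows an RPKM of up to 0.0793 to 0.531, depending on length.

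**Figure D3:**
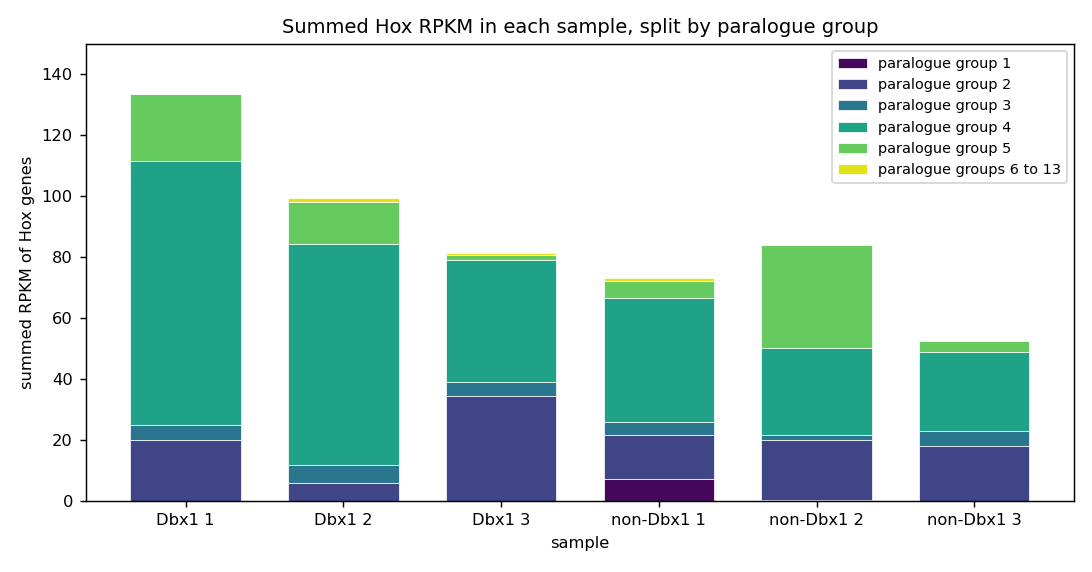
Bars give the summed RPKM of the Hox genes in each sample, stacked by paralogue group. Group 4 is the thickest band in every sample except non-Dbx1 2, where group 5 is, and the total runs from 52.4 in non-Dbx1 3 to 133.6 in Dbx1 1.

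Summed over all 39 genes, the RPKM was 133.6, 99.4 and 81.2 for the Dbx1 samples, against 73.1, 84.0 and 52.4 for the non-Dbx1 samples. Dbx1 3 lay below non-Dbx1 2, so the totals overlapped, with means of 105 ± 26.6 (SD, n = 3) and 69.8 ± 16 (n = 3). Without Hoxa4 the means were 60.1 ± 6.36 and 55.3 ± 15.2. Hoxa4 alone made up 49.6%, 44.4% and 29.0% of the total in the Dbx1 samples, against 26.8%, 15.1% and 21.6% for the non-Dbx1 samples. These shares did not overlap. Nor did the summed Hoxa cluster, at 89.3, 53.1 and 57.5 RPKM against 36.6, 43.3 and 29.6, but this sum includes Hoxa4. No other Hoxa gene separated the groups. The sums of the Hoxb, Hoxc and Hoxd clusters overlapped. Position along the numbering was summarised by the mean paralogue number weighted by RPKM, which was 3.83, 4.01 and 3.16 for the Dbx1 samples, against 3.40, 3.90 and 3.29 for the non-Dbx1 samples. The means differed by 0.13, and this gap between 3.67 ± 0.445 (SD, n = 3) and 3.53 ± 0.327 (n = 3) was smaller than the spread in either group.

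The test ran over the 17614 genes with an RPKM above 0 in at least 3 samples, and 11 Hox genes entered it. A gene enters more easily when 1 group is high, so these 11 are not the whole family. Their FDR was at least 0.787 and 0 were called (limma), as in the fit on recovered reads with voom, while 1 of all tested genes was called (0.00568%). At an unadjusted p under 0.05, 2 of the 11 (18.2%) passed, Hoxa4 and Hoxc5, both with Dbx1 higher. Over all tested genes, 5.2% passed in either direction and 2.73% with Dbx1 higher. The same 2 genes were those whose groups did not overlap, against 10.6% of all tested genes in either direction and 5.35% with Dbx1 higher. The L2FC was above 0 in 5 of 11 Hox genes, against 50.8% of all tested genes, and its median was -0.03, against 0.0089.

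Among the other tested Hox genes the L2FC was 0.62 for Hoxa3, 0.42 for Hoxc4 and 0.30 for Hoxd3. It was -0.29 for Hoxb5, -0.18 for Hoxd4, -0.15 for Hoxb3, -0.09 for Hoxa2, -0.05 for Hoxb4 and -0.03 for Hoxb2. Standard errors ran from 0.18 for Hoxd4 to 1.01 for Hoxb5, and each of these genes except Hoxa3 and Hoxc4 had an L2FC smaller than its standard error. The sign of the L2FC of Hoxa2, Hoxb2, Hoxb4, Hoxb5 and Hoxd3 turned when a single sample was left out, so no direction is given for them. The median within-group standard deviation of log2(RPKM + 1) was 0.45 over the tested Hox genes and 0.49 over all tested genes.

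**Figure D4:**
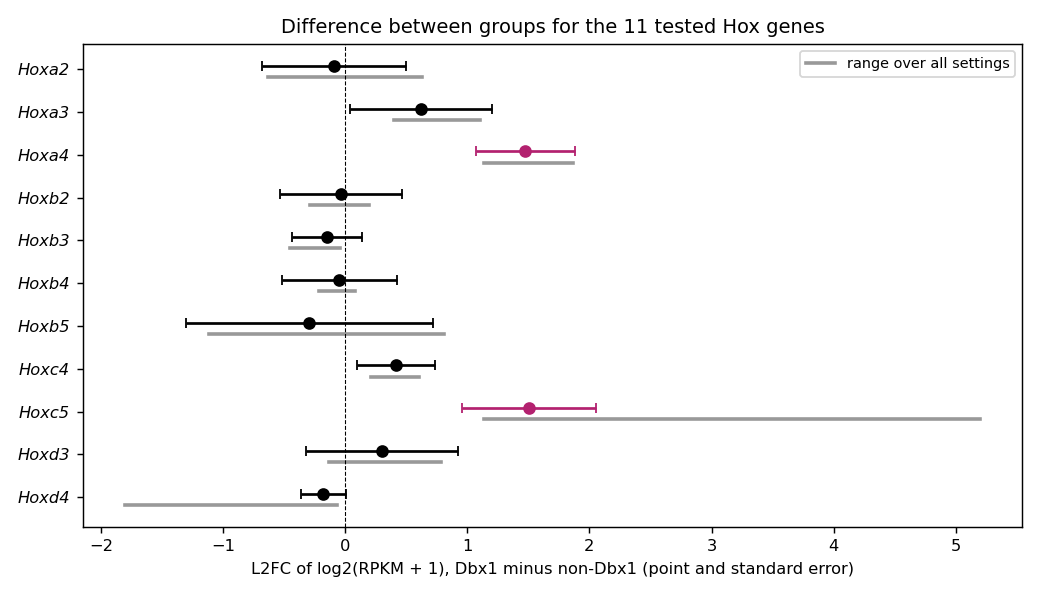
Points and bars give the L2FC of log2(RPKM + 1), Dbx1 minus non-Dbx1, with its limma standard error, for the 11 tested Hox genes. Hoxa4 (1.47) and Hoxc5 (1.51) lie furthest from 0, and the bar of Hoxb5 is the longest.

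The order of levels between genes depends on exon length. The lengths behind the deposited RPKM appear to count exon bases again wherever transcripts of a gene overlap. The distinct exons summed match the recovered lengths of 24 of the 26 detected Hox genes. For some of these, such as Hoxa4, the merged exon length is the same, so a match cannot tell the 2 lengths apart. Among genes with at least 200 reads whose 2 lengths differ, 18.3% matched the distinct sum and 0.166% the merged length. The rest matched neither. The ratio of the length used to the merged exon length was 1 for Hoxa2, Hoxa4 and Hoxb4, 1.60 for Hoxc4, 1.68 for Hoxb5 and 2.48 for Hoxd3. As deposited, the order of mean RPKM over the 6 samples was Hoxa4, Hoxa2, Hoxc4, Hoxb5 and Hoxb4, and neighbours in that order overlapped in range over the samples. Over merged length Hoxc4 moved above Hoxa2, with a mean of 28.4 RPKM for Dbx1 and of 20.6 for non-Dbx1, and Hoxd3 moved from rank 8 to rank 5, with a mean of 4.12 over all 6 samples, above Hoxb4 at 4.06. The highest Hox gene of a sample, as deposited, was Hoxa4 in Dbx1 1, Dbx1 2 and non-Dbx1 1, Hoxa2 in Dbx1 3 and non-Dbx1 3, and Hoxb5 in non-Dbx1 2. Over merged length Hoxc4 led in non-Dbx1 1 (25.1 RPKM) and non-Dbx1 3 (17.5 RPKM), and the others were as before. The ratio of the RPKM of a gene between samples does not depend on its length. The L2FC does through the pseudocount, and over merged length it was 0.48 for Hoxd3, -0.39 for Hoxb5, -0.29 for Hoxd4 and 1.61 for Hoxc5, with the same direction for all 11 tested Hox genes.

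**Figure D5:**
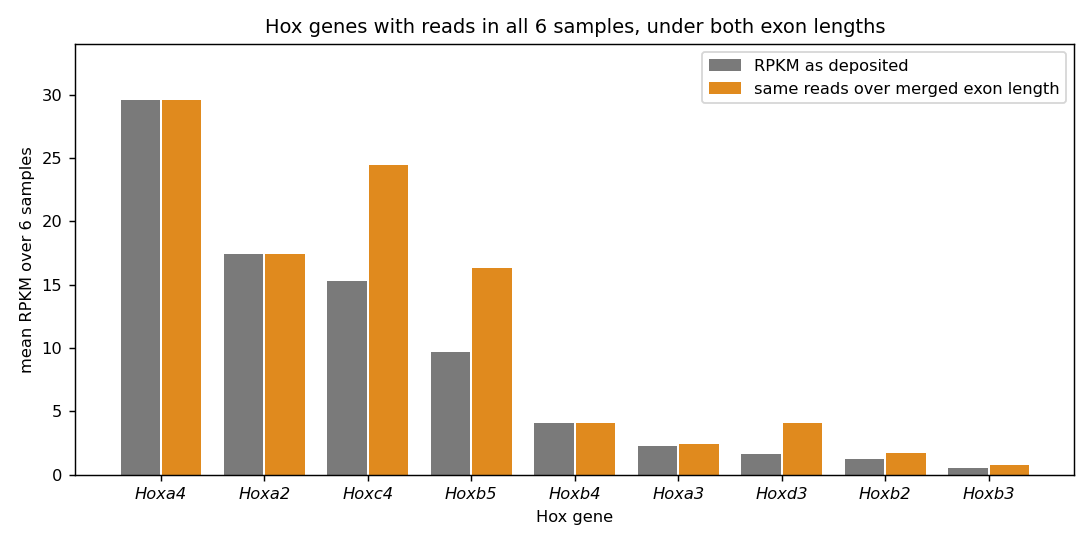
Bars give the mean RPKM over the 6 samples of the 9 Hox genes with reads in all of them, as deposited and with the same reads divided by merged exon length. Hoxc4, Hoxb5 and Hoxd3 rise under the merged length, and Hoxa4, Hoxa2 and Hoxb4 stay where they are.

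The cofactors of Hox proteins were expressed throughout. All 9 Pbx, Meis and Pknox genes had reads in all 6 samples, and 1 of 9 passed p under 0.05, with Dbx1 higher, against 2.73% of all tested genes. This was Pbx3, a partner that raises the DNA-binding selectivity of Hox proteins, with an L2FC of 1.10 (limma, Benjamini-Hochberg FDR = 0.787). The cofactors with the highest mean RPKM were Pbx3 (29.9) and Meis2 (20.6), and the Meis2 values of the groups overlapped.

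Retinoic acid sets Hox boundaries, and 14 of 15 genes of its pathway had reads, Cyp26a1 being at 0. Of 12 tested, 1 passed p under 0.05 with Dbx1 higher (2.73% of all tested genes) and 1 with non-Dbx1 higher (2.48%), and none passed the FDR threshold (lowest 0.870). Crabp1, which binds retinoic acid in the cytoplasm, had RPKM values of 452, 239 and 437 for the Dbx1 samples, against 956, 776 and 545 for the non-Dbx1 samples. All Dbx1 values were below all non-Dbx1 values (L2FC -1.03, limma, Benjamini-Hochberg FDR = 0.874). Rxrg, a retinoid X receptor, had 2.86, 6.17 and 6.44, against 0, 1.94 and 0.276 (L2FC 1.93, limma, Benjamini-Hochberg FDR = 0.870). Rxra was likewise without overlap (10.6% of all tested genes in either direction), at 1.92, 1.60 and 4.03 against 1.38, 0.105 and 1.55, but did not pass p under 0.05 (limma, Benjamini-Hochberg FDR = 0.936). Rxrb, the other gene of this list with a high mean (8.48 RPKM), overlapped between the groups.

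Of 21 Polycomb and trithorax genes, which keep Hox genes silent or active, all had reads, 19 of them in all 6 samples. Suz12, a core subunit of Polycomb repressive complex 2, had RPKM values of 2.28, 3.73 and 4.35 for the Dbx1 samples, against 0.263, 0.583 and 1.01 for the non-Dbx1 samples (L2FC 1.46, limma, Benjamini-Hochberg FDR = 0.912). Cbx8, a chromodomain subunit of Polycomb repressive complex 1, had 2.54, 2.68 and 6.83, against 0.0316, 1.74 and 0.368 (L2FC 1.57, limma, Benjamini-Hochberg FDR = 0.912). These 2 of 21 were the ones with p under 0.05, both with Dbx1 higher, against 2.73% of all tested genes in that direction. The alternative methyltransferase subunits of complex 2 lay on opposite sides without overlap, as 10.6% of all tested genes did in either direction. Ezh2 had RPKM values of 0.496, 1.13 and 0.303 for the Dbx1 samples, against 0.0709, 0.193 and 0.0292 for the non-Dbx1 samples. Ezh1 had 3.68, 3.64 and 1.62, against 9.16, 5.21 and 7.88. Neither passed p under 0.05 (limma, Benjamini-Hochberg FDR = 0.912 for both). The highest means of the list were those of Wdr5 (16.2 RPKM) and Rnf2 (8.15 RPKM), which overlapped between the groups.

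Of 16 non-coding genes inside the clusters, 8 had reads and 5 were tested. At p under 0.05 there were 0 of these 5 (limma), against 5.2% of all tested genes, a share that so few genes cannot be told apart from. Haglr, antisense at the 3′ end of the Hoxd cluster, led with RPKM values of 3.88, 7.25 and 13.4 for the Dbx1 samples, against 12.8, 5.46 and 6.37 for the non-Dbx1 samples. Hotairm1, in the Hoxa cluster, had 0.640, 3.77 and 0.941, against 1.35, 2.29 and 0.925, so it was present in all 6 samples. Hottip and Hoxa11os, towards the Hoxa13 end of the cluster, were at 0, and so were the microRNA genes Mir10a, Mir10b, Mir196a-1, Mir196a-2, Mir196b and Mir615, whose short products this library type does not measure well.

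Genes that flank the clusters were counted in the same way. Of 8 tested, 0 had p under 0.05 (limma), against 5.2% of all tested genes. Groups without overlap were found for 0 of the 8, against 10.6% of all tested genes. So few genes cannot be told apart from these shares. The highest means were those of Mtx2 (52.6 RPKM), which lies beyond Hoxd1, and Snx10 (10.8 RPKM). Evx1, the homeobox gene beyond Hoxa13 and a marker of neurons from Dbx1 progenitors, had RPKM values of 7.84 and 3.67 in Dbx1 2 and 3 and 0 in the other 4 samples. Evx2, beyond Hoxd13, had 0.660, 4.4 and 11.2 for the Dbx1 samples, against 1.83, 0.0219 and 0.357 for the non-Dbx1 samples. Both thus carried reads next to the Hoxa13 and Hoxd13 genes that had none. The hindbrain regulators of Hox genes were patchy, with 5 of 8 detected and 4 tested. Of these 4, 0 had p under 0.05 (limma), against the same 5.2% of all tested genes. Gbx2 had a mean of 2.13 RPKM and reads in 3 samples.

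Genes of rostral brain identity served as the opposite check on position. Of 7 forebrain and midbrain homeobox genes, Emx1 and Emx2 were at 0, none had reads in 3 samples and their summed RPKM was at most 0.182 in a Dbx1 sample and 0.774 in a non-Dbx1 sample. Lhx2 (mean 0.237 RPKM) and Six3 (mean 0.0245 RPKM) were the highest of them. Every sample thus had at least 52.4 RPKM of Hox transcripts beside less than 1 RPKM of this list.

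Between 6464675 and 9432958 reads per sample lay on genes, and between 1370 and 2833 of them on Hox genes. All 6 neuronal marker genes had reads in all samples (summed RPKM 994 to 1708 in the Dbx1 and 993 to 1380 in the non-Dbx1 samples), led by Tubb3 and Snap25. Markers of other cells were also present. Of the 5 erythroid genes, 4 were higher in every non-Dbx1 sample, with sums of 90.3 to 507 RPKM against 733 to 14058. Oligodendrocyte sums were 16.4 to 73.6 against 46.5 to 388, with Mbp higher in every non-Dbx1 sample, astrocyte sums 30.3 to 61.1 against 52.2 to 71.2, and microglial sums 0.202 to 10.4 against 0.756 to 13.3, with Tmem119 at 0. Motor neuron sums were 5.56 to 14.2 against 3.23 to 157, the highest in non-Dbx1 3. Endothelial and pericyte sums were 0.0627 to 0.682 against 3.06 to 69.4. These sums were higher on average in the non-Dbx1 samples, while Hoxa4 and Hoxc5 were higher in the Dbx1 samples, and their part in the Hox values was not tested.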

How the data were processed

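RNA of 6 samples (3 Dbx1 and 3 non-Dbx1, grouped by sample title) was sequenced by the study. The authors aligned reads to mm10 with TopHat2, counted them per gene name with HTSeq without strand and divided by total exon length and by reads on genes. The authors deposited these RPKM values for 49568 gene names, without counts and without scaling between samples. The submitters' processing notes also name SAMtools. The annotation release is not given in the sources used here.

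Reads per gene and per sample were recovered from the steps between RPKM values, whole for all 27067 genes with a value above 0. For Hoxa7, Hoxa9 and other genes whose length matched no exon sum they are minimum numbers. Gene names were looked up in GENCODE vM21 (GRCm38) for positions, and 47214 (95.3%) were found. Start regions came from RefSeq, which had entries for 22 of the 39 genes, but none for Hoxa4.

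The groups were compared with limma 3.58.1 in R 4.3.3 (lmFit, eBayes with trend, two-sided) on log2(RPKM + 1) for every gene with a value above 0 in 3 or more samples. FDR is by Benjamini-Hochberg over all of them, with 0.1 as the threshold. The pseudocount of 1 shrinks the fold change of low genes. The authors' own test used their counts, in place of which the recovered reads were tested with voom as an alternative. Each sample came from a different animal. Sums, ratios and recovered reads were made in Python 3.11.15 (numpy 2.4.6, pandas 2.3.3) and plots in matplotlib 3.10.9.

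The limma step was tested on simulated data for 17410 genes, 200 of them changed, all taken from genes averaging 100 or more reads. In this comparison 18 of 100 genes were found at a log2 change of 2 and 85 of 100 at 4, and 10 unchanged genes were called. Unadjusted p fell under 0.05 for 4.93% of unchanged genes.

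The members and lists were chosen with earlier results of these data known. Every Hox gene with a value in at least 3 samples is given in each sample, and the others with their values above 0. From the other lists are named the 2 genes with the highest mean RPKM and those with p under 0.05 or groups that do not overlap. Some genes that this rule names are not reported here. Others named there, and the ratios between genes, were chosen after their values were seen. Alternatives were a pseudocount of 0.1, other filters, size factors, quantile normalization, no trend, the replicate number as a block, voom on recovered reads and each sample left out. The merged exon length was added after seeing the data.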

Additional observations from a re-analysis of the deposited data

How the results depend on the processing

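Hoxa4 kept its direction and p under 0.05 under each alternative run (L2FC 1.14 to 1.86, the extremes with a sample left out), with a limma FDR of 0.547 or more. The 2 Hox genes with p under 0.05 became 1 when all genes with a value in at least 1 sample were tested, and 1 to 2 with a sample left out, Hoxc5 being the gene lost. Hoxc5 and Hoxd4, which have samples at 0, kept their direction but depended on the scale: the L2FC of Hoxc5 was 3.55 with a pseudocount of 0.1, 3.15 as the log2 ratio of means and 5.20 with voom, and that of Hoxd4 was -0.79 and -1.80 under the first 2 of these. Over all genes the 1 call became 0 with a pseudocount of 0.1, with genes of at least 1 sample and with voom on recovered reads, 3 without the trend, and 0 to 1 with a sample left out. The 5 genes of the other lists with p under 0.05 became 8 with voom and 2 to 7 with a sample left out. The difference in summed Hox RPKM between the groups was 34.9, or 4.83 without Hoxa4 and 20.5 to 46.7 with a sample left out. Of the 26 Hox genes detected, 11 reached an RPKM of 1 in some sample. The L2FC of Hoxa2 turned to 0.23 as the log2 of the ratio of mean RPKM. With a sample left out it ran from -0.63 to 0.63 for Hoxa2, -0.29 to 0.20 for Hoxb2, -0.22 to 0.077 for Hoxb4, -1.11 to 0.81 for Hoxb5 and -0.13 to 0.76 for Hoxd3, and the difference in weighted paralogue number from -0.04 to 0.38. The causes were not tested.

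The replicate numbers share no animal, and the deviations of samples with the same number correlated at -0.107, 0.0248 and -0.0522. With the replicate block, 0 genes were called in place of 1, and the Hox genes with p under 0.05 stayed at 2. With 15 neurons per sample and 3 samples per group, values of genes with few reads, such as Hoxc5 and Hoxd4, carry the larger counting error.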
